A study of Homo sapiens with 18 samples.

Results

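The genes examined here were 10 named members of the vascular endothelial growth factor (VEGF) system and of the marker set of blood vessel endothelium, out of 63677 genes in the count table. They were chosen by symbol, with earlier results of these data known, and matched to the table by Ensembl identifier. The ligands were VEGFA (ENSG00000112715), VEGFB (ENSG00000173511) and VEGFC (ENSG00000150630). The receptors were KDR (ENSG00000128052), FLT1 (ENSG00000102755) and TEK (ENSG00000120156). The endothelial genes were VWF (ENSG00000110799), EGFL7 (ENSG00000172889), PECAM1 (ENSG00000261371) and CDH5 (ENSG00000179776). Of the 10, 7 had enough counts to be tested, and TEK, PECAM1 and CDH5 did not. The cells were WM989, an established human melanoma line, and poly(A)-selected RNA was sequenced in 18 libraries, 3 in each of 6 groups. By its title, the study concerned genes that modulate variability between single cells in resistance to therapy. EPZ5676 is an inhibitor of DOT1L, a histone methyltransferase.

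The DMSO groups had received the solvent DMSO and the EPZ5676 groups 4 µM EPZ5676, both for 7 days before RNA was taken. Within each treatment, "bulk" was the whole population, "high" was cells with high NGFR and EGFR, and "low" was cells with low NGFR and EGFR. All 6 groups were the same line in the same low-serum medium, so the results describe 1 tumour line grown without other cell types. The labels number the replicates but do not say whether they were separate cultures, so p-values measure the spread between these libraries, which may be technical.

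VEGF ligands are secreted proteins that bind receptor tyrosine kinases on endothelial cells: VEGFA binds FLT1 and KDR, VEGFB binds FLT1, and VEGFC binds KDR and the lymphatic receptor FLT4 after proteolytic cleavage. KDR carries most of the growth signal, whereas FLT1 binds VEGFA tightly and signals weakly. Tumour cells, melanoma cells among them, are a known source of VEGFA and VEGFC for blood and lymphatic vessels, while the receptors, the adhesion molecules PECAM1 and CDH5, the clotting factor VWF and the secreted EGFL7 are best known from the endothelium.

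Stretches upstream of VEGFC, KDR and EGFL7 are shown because these were the members whose stretches in the RefSeq table were free of annotated exons; between high and low cells under DMSO, VEGFC and KDR rose and EGFL7 fell. Each stretch is the 250 bases before an annotated transcription start, read 5′ to 3′ on the gene's strand from RefSeq (GRCh38.p14), a later build than the hg19 used for counting. The KDR stretch lies at chr4:55125596-55125845 (minus strand), the VEGFC stretch at chr4:176792923-176793172 (minus strand), and EGFL7, with 2 annotated starts, has stretches at chr9:136658606-136658855 and chr9:136662666-136662915 (plus strand). None of the 4 overlaps an annotated exon. Capitals mark matches, on either strand, to GGGCGG (the GC box) or CGGAAG (the ETS core).
KDR: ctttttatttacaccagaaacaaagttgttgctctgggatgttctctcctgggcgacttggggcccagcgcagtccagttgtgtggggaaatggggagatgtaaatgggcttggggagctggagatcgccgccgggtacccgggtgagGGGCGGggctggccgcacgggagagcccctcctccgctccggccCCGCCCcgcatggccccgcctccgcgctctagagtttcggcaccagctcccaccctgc
VEGFC: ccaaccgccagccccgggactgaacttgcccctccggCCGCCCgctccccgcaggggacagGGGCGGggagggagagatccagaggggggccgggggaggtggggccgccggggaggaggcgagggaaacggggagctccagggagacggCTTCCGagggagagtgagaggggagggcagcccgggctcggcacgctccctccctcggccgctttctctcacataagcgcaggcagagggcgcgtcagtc
EGFL7 upstream start: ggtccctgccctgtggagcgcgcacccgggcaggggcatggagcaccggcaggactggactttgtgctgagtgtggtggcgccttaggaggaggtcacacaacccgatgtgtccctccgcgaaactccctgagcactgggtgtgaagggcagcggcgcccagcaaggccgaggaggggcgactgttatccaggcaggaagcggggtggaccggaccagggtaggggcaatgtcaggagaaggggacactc
EGFL7 downstream start: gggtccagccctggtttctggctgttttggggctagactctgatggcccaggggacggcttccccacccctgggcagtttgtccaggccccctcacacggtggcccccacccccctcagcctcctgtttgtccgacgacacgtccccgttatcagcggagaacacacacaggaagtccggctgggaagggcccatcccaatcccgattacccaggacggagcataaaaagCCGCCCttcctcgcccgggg

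The KDR and VEGFC stretches each held 2 GC boxes, the stretch at the downstream EGFL7 start held 1 and that at the upstream start held 0. A GC box was present in 42.6% of the 35116 stretches of this length in the RefSeq table. VEGFC alone among the 4 held an ETS core, which 16.5% of the stretches hold. The E-box CACGTG, held by 6.34% of stretches, matched none of the 4. The same was so for the melanocyte M-box TCATGTG (2.52% of stretches). The AP-1 site, spelled TGANTCA with N for any base (6.57% of stretches), had no match here either. Neither the TEAD site GGAATG (11.9% of stretches) nor a TATA box, searched as TATAAA (10.7% of stretches), was found in the 4. No matches overlapped each other. Their GC content was 65.2% (KDR), 74% (VEGFC), 66.4% and 64.8% (EGFL7), against a median of 58% over the table. The table matched 6 of the 10 members. The stretches of TEK, VEGFB and FLT1 overlap annotated exons and are not printed, and VEGFA, VWF, PECAM1 and CDH5 had no entry.

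Libraries held 13383741 to 26311674 gene counts. NGFR, the receptor used in the sort, ran from 537 to 617 CPM (a gene's share of the library's gene counts, with library sizes scaled by TMM, the trimmed mean of M values) in DMSO high cells and from 0.639 to 1.61 CPM in DMSO low cells, and EGFR from 68.7 to 85.6 CPM against 2.26 to 3.46 CPM. Under EPZ5676, NGFR ran from 645 to 768 CPM in high and from 1.05 to 6.86 CPM in low cells. EPZ5676 blocks an enzyme, so the level of DOT1L RNA does not check the treatment. DMSO bulk replicate 1 stood apart from the other 2 DMSO bulk libraries. Over the 3416 genes that differed at least 2-fold between DMSO high and low cells, it lay at a median of 48% of the way from low to high, and the other 2 lay at 5.22% and 5.47%. It widens the spread that all groups share in the fit, so results that change without it are given both ways. Reads on no annotated feature made up 18.88% to 28.65% in 6 libraries, 5 of them EPZ5676, and 12.80% to 15.17% in the other 12.

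Of the 10 members, PECAM1, CDH5 and TEK were at or near 0. PECAM1 had 0 counts in 18 of 18 libraries, although the table also lists 0 for the 37 mitochondrially encoded genes, so a 0 here need not mean that no RNA was made. CDH5, the endothelial cadherin, had 18 counts over all libraries, was at 0 in 10 of them and reached 5 counts in the highest. TEK, the angiopoietin receptor, had 25 counts over all libraries, was at 0 in 7 and reached 6. For scale, 3 counts are worth 0.114 CPM in the deepest library and 0.224 CPM in the shallowest, so differences between groups in CDH5 and TEK were not detectable at this depth.

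Of 22 other endothelial markers, 17 stayed at or under 1 CPM in all 18 libraries. The summed level of these 22 ran from 42.9 to 47.0 CPM in DMSO high, 34.5 to 37.5 CPM in DMSO low, 45.1 to 53.1 CPM in EPZ5676 high and 31.7 to 34.5 CPM in EPZ5676 low cells. ENG, a TGF-beta co-receptor, made up most of it, with 38.0 ± 1.90 CPM (SD, n = 3) in DMSO high and 33.4 ± 1.36 CPM in DMSO low cells. The 7 melanocyte markers summed to 1120 to 14100 CPM over all libraries. Among the members best known from endothelium, EGFL7 ran from 11.2 to 33.1 CPM and VWF from 1.42 to 9.14 CPM. The name of the gene set is not a name for these cells, which are a melanoma line.

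**Figure D1:**
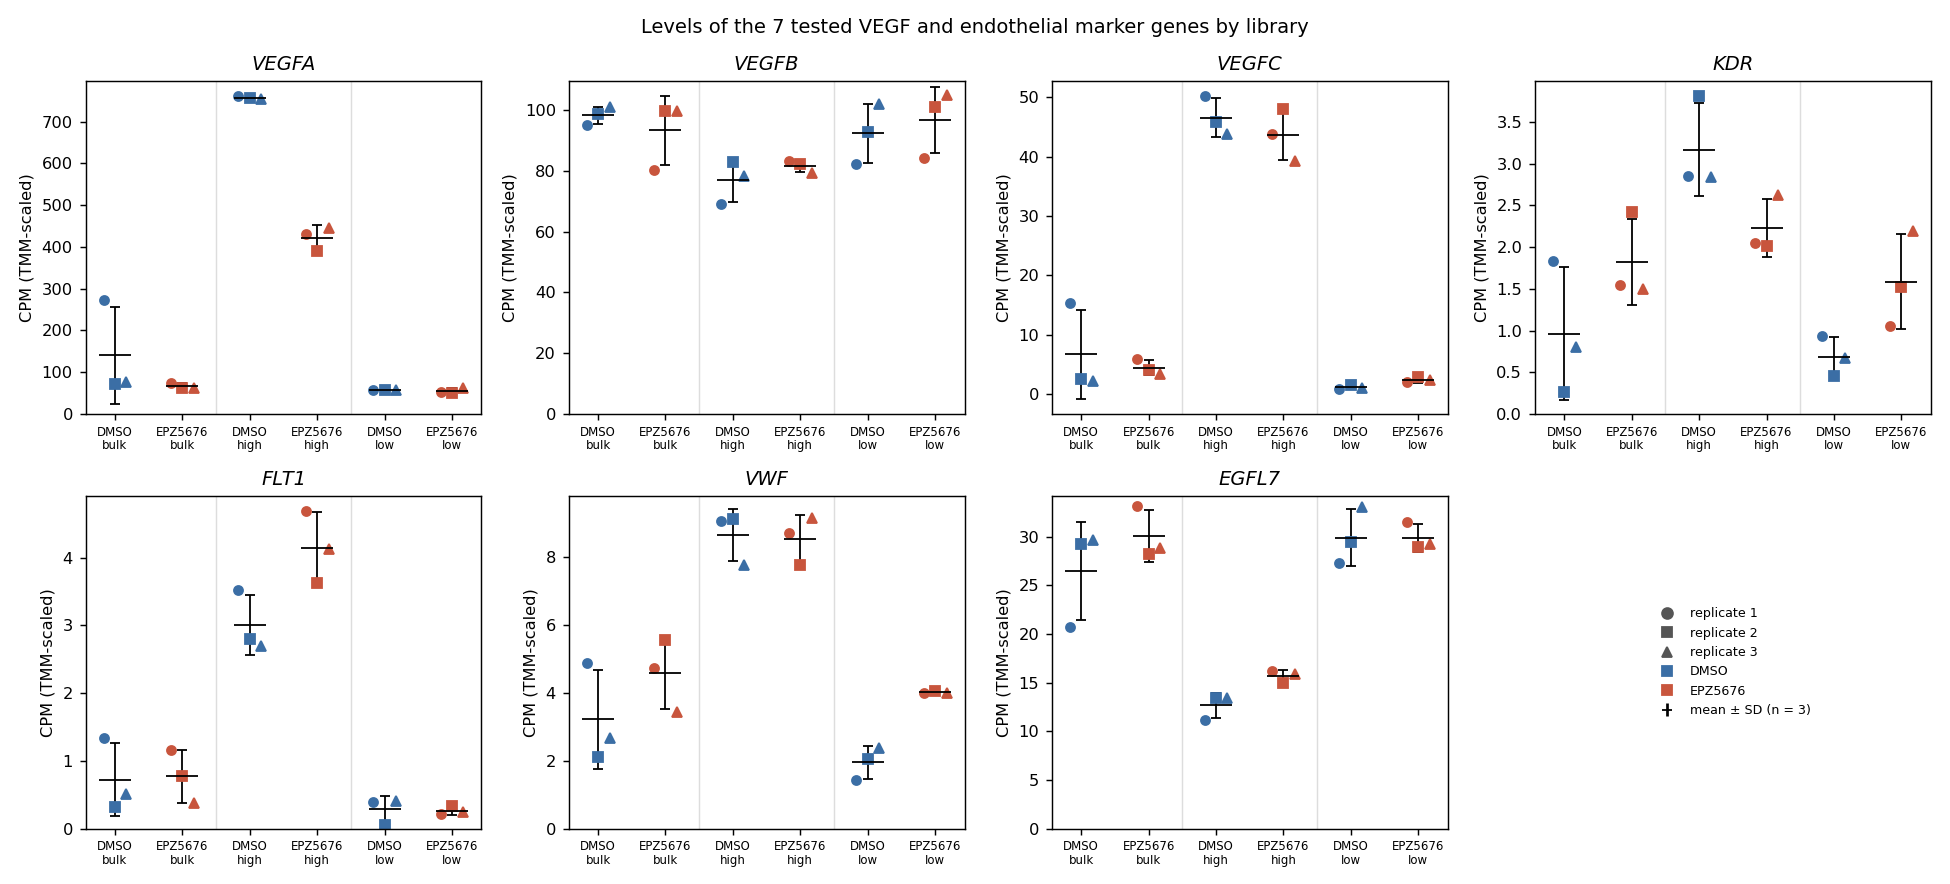
TMM-scaled CPM (y axes, linear, 1 panel per gene) of the 7 tested members in the 6 groups (x axes), with each library as a point and the mean ± SD of 3 libraries as a bar. VEGFA, VEGFC, FLT1 and VWF are higher in high than in low cells under both treatments, EGFL7 is lower, and DMSO bulk replicate 1 lies toward the high cells.

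The sort was the larger axis of change for these genes. Under DMSO, all 7 tested members passed an adjusted p of 0.05 between high and low cells: VEGFA, VEGFC, KDR, FLT1 and VWF rose in high cells, and VEGFB and EGFL7 fell. Over all 18121 tested genes, 56.3% passed (29.6% higher, 26.7% lower), so a call by itself is common here. The median log2 fold change of the 7 was 2.20, against 0.03 over all tested genes. Under EPZ5676, 6 of the 7 passed, 4 higher and 2 lower, against 48.9% of all genes (25.8% higher, 23.1% lower), with a median log2 fold change of 1.09 against 0.02. KDR was the member that did not pass. The libraries of the groups did not overlap for 60.3% of genes under each treatment.

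Markers of other cell types moved with the sort as well. Fibroblast and pericyte markers summed to 1150 to 1480 CPM in DMSO high and 74.1 to 78.2 CPM in DMSO low cells. Of 8 tested, 7 rose in high cells and 1, LUM, fell. COL3A1, among the 7, stood at 0.416 to 1.03 CPM in DMSO high and at most 0.426 CPM in bulk and low libraries. It passed the count filter only through high cells, so its rise there is no support. Melanocyte markers summed to 1120 to 1330 CPM in DMSO high and 11100 to 11600 CPM in DMSO low cells, and all 7 fell. Of the 22 other endothelial markers, 6 could be tested. Under DMSO 4 rose and 0 fell in high cells, against 29.6% of all genes higher and 26.7% lower. Among the 6, CLDN5, ESAM and CD34 would not have passed the count filter without the high cells, so a rise of these there is no support. The part of the cell type markers in the results below was not tested. In RNA from many cells, fewer cells that express a gene and less RNA per cell cannot be told apart.

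Among the ligands, VEGFA had the highest total count over the 18 libraries, 80697 against 31071 for VEGFB, with 738 to 15706 per library. VEGFB had more counts than VEGFA in all low and EPZ5676 bulk libraries and in DMSO bulk replicates 2 and 3. The VEGFA level was 760, 757 and 753 CPM in the 3 DMSO high libraries and 57.3, 58.3 and 57.2 CPM in the DMSO low libraries. Under EPZ5676 it was 431, 389 and 446 CPM in high and 51.7, 50 and 61.9 CPM in low cells. High and low libraries were far apart under both treatments, and the DMSO high libraries were nearly equal to each other. VEGFA rose by a log2 fold change of 3.72 ± 0.43 (SE) under DMSO (adjusted p = 8e-06), a ratio of means of 13.1, and by 2.95 ± 0.41 under EPZ5676 (adjusted p = 6.66e-05), a ratio of 7.74. An annotated antisense transcript overlaps VEGFA exons, and the sources used here do not give the strand setting of the counting, so reads of the 2 cannot be told apart.

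VEGFC, the lymphatic growth factor, showed the widest sort difference of the 7 under both treatments. The DMSO high libraries stood at 50.2, 45.8 and 43.8 CPM and the DMSO low libraries at 0.835, 1.56 and 1.08 CPM. Under EPZ5676 the values were 43.9, 48.0 and 39.3 CPM in high and 1.96, 2.83 and 2.29 CPM in low cells. The high libraries lay far above the low libraries under both treatments. The log2 fold change was 5.33 ± 0.63 under DMSO (adjusted p = 1.05e-05), a ratio of means of 40.3. Under EPZ5676 it was 4.18 ± 0.58 (adjusted p = 5.66e-05), a ratio of 18.5.

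VEGFB, a ligand of FLT1 linked to fatty acid handling and vessel survival, moved the other way by a small amount. Its DMSO high libraries stood at 69.3, 83.1 and 78.3 CPM and its DMSO low libraries at 82.4, 92.7 and 102 CPM, and the ranges overlapped. Under EPZ5676 they were 83.2, 82.3 and 79.3 CPM in high and 84.4, 101 and 105 CPM in low cells, which did not overlap although high and low replicate 1 nearly touched. VEGFB fell by 0.27 ± 0.09 on the log2 scale under DMSO (adjusted p = 0.0215) and by 0.25 ± 0.09 under EPZ5676 (adjusted p = 0.0334). The DMSO call was lost without DMSO high replicate 1 (adjusted p = 0.114), DMSO low replicate 2 (adjusted p = 0.0508) or DMSO low replicate 3 (0.125), and the EPZ5676 call was lost in 6 of 18 such fits, with adjusted p up to 0.148.

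Both receptors with enough counts were rare transcripts. FLT1 had 1 to 86 counts per library. Its DMSO high libraries stood at 3.52, 2.80 and 2.70 CPM and its DMSO low libraries at 0.393, 0.0502 and 0.405 CPM. Under EPZ5676 they stood at 4.68, 3.63 and 4.12 CPM in high and 0.210, 0.328 and 0.238 CPM in low cells. High and low libraries did not overlap, and the low values came from 1 to 9 counts each. FLT1 rose by 3.36 ± 0.46 on the log2 scale under DMSO (adjusted p = 2.42e-06) and by 3.92 ± 0.46 under EPZ5676 (adjusted p = 6.75e-07).

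KDR, the main signalling receptor for VEGFA, had 5 to 79 counts per library. It stood at 2.85, 3.81 and 2.84 CPM in DMSO high and 0.933, 0.452 and 0.674 CPM in DMSO low cells. The EPZ5676 values were 2.05, 2.01 and 2.63 CPM in high and 1.05, 1.52 and 2.19 CPM in low cells. High and low libraries were separate under DMSO and overlapped under EPZ5676, where low replicate 3 was above high replicates 1 and 2. KDR rose by 2.20 ± 0.42 on the log2 scale under DMSO (adjusted p = 0.000128), and the difference under EPZ5676 was 0.47 ± 0.39 (adjusted p = 0.34).

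VWF, the clotting factor carried in endothelial storage granules, had 29 to 191 counts per library. Its DMSO high libraries stood at 9.05, 9.11 and 7.76 CPM and its DMSO low libraries at 1.42, 2.06 and 2.38 CPM. Under EPZ5676 they stood at 8.71, 7.76 and 9.14 CPM in high and 3.99, 4.06 and 4.00 CPM in low cells. The 2 high groups overlapped each other, and the low groups were separate from them and from each other. VWF rose in high cells by 2.14 ± 0.24 on the log2 scale under DMSO (adjusted p = 1.69e-07) and by 1.09 ± 0.22 under EPZ5676 (adjusted p = 0.000313). VWFP1, a pseudogene copy of part of VWF, had at most 3 counts in a library.

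EGFL7, a secreted matrix protein of vessel walls whose gene hosts a microRNA, fell in high cells where VWF rose. DMSO high libraries stood at 11.2, 13.4 and 13.4 CPM and DMSO low libraries at 27.3, 29.4 and 33.0 CPM. Under EPZ5676 they stood at 16.2, 15 and 15.9 CPM in high and 31.5, 28.9 and 29.2 CPM in low cells. High libraries were below low libraries throughout, with no overlap. EGFL7 fell by 1.24 ± 0.12 on the log2 scale under DMSO (adjusted p = 2.46e-08) and by 0.92 ± 0.12 under EPZ5676 (adjusted p = 1.61e-06).

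In high cells, treatment with EPZ5676 was set against DMSO to ask what DOT1L inhibition changes in sorted cells. No member passed in the edgeR fit of 18 libraries or in DESeq2, against 3% of all genes in edgeR. Before adjustment 2 members, VEGFA and EGFL7, were under 0.05 in edgeR, and the share of all genes at that threshold is not given. VEGFA was still the clearest difference by library: its 3 EPZ5676 high libraries, at 389 to 446 CPM, lay below the 3 DMSO high libraries at 753 to 760 CPM, a mean 44.2% lower. The log2 difference was -0.84 ± 0.38 (adjusted p = 0.301). Without DMSO bulk replicate 1, which is in neither group, the same difference was -0.84 ± 0.07 (adjusted p = 5.69e-08, against 10.7% of all genes called). Over 29 alternatives the adjusted p ran from 2.18e-08 to 0.95, and 4 passed; the log2 difference ran from -0.88 to -0.76. Markers of other cell types differed between these groups too. Fibroblast and pericyte markers summed to 637 to 781 CPM under EPZ5676 and 1150 to 1480 CPM under DMSO. Most of both sums was COL1A1, at 378 to 495 CPM and 822 to 1130 CPM. Melanocyte markers summed to 1710 to 1880 CPM under EPZ5676 and 1120 to 1330 CPM under DMSO. Over 18 libraries, 1 of 8 fibroblast and pericyte markers rose and 0 fell, and 1 of 7 melanocyte markers rose and 0 fell. Without DMSO bulk replicate 1, 3 of 8 fibroblast and pericyte markers fell (PDGFRA, PDGFRB and COL1A1) and 2 rose (LUM and DCN). In that fit 5 of 7 melanocyte markers rose, DCT by the most on the log2 scale (1.37), and 10.7% of all genes were called, with 4.89% lower. Their part in the VEGFA difference was not tested.

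The share of reads on no feature differed between libraries of these 2 groups. Among libraries with a low share, VEGFA was 446 CPM in EPZ5676 high replicate 3 and 760 and 757 CPM in DMSO high replicates 1 and 2. Among those with a high one it was 431 and 389 CPM in EPZ5676 high replicates 1 and 2 and 753 CPM in DMSO high replicate 3. In both sets the EPZ5676 libraries were the lower ones. With the 6 high-share libraries and DMSO bulk replicate 1 all left out, the log2 difference was -0.76 ± 0.09. That combination was chosen after seeing the data. It leaves EPZ5676 high replicate 3 as the only library of its group, as does leaving out the 6 high-share libraries alone.

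EGFL7 also differed by library in high cells, at 15 to 16.2 CPM under EPZ5676 and 11.2 to 13.4 CPM under DMSO, with no overlap. Its log2 difference was 0.31 ± 0.12 (adjusted p = 0.191), and it rose without DMSO bulk replicate 1 (adjusted p = 0.0334). FLT1 at 3.63 to 4.68 CPM lay above its DMSO high range of 2.70 to 3.52 CPM, and KDR at 2.01 to 2.63 CPM lay below its DMSO high range of 2.84 to 3.81 CPM. Neither passed: the log2 difference was 0.46 ± 0.35 for FLT1 (adjusted p = 0.561) and -0.51 ± 0.37 for KDR (adjusted p = 0.547). Groups without overlap were common, at 24.8% of all genes. VEGFC (-0.09 ± 0.45), VWF (-0.02 ± 0.21) and VEGFB (0.08, adjusted p = 0.732) had the smallest log2 differences.

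In low cells, VWF was the 1 member of 7 that passed, against 1.04% of all genes (0.712% higher). Its EPZ5676 low libraries, at 3.99 to 4.06 CPM, lay above DMSO low libraries at 1.42 to 2.38 CPM, a ratio of means of 2.06. VWF rose by 1.03 ± 0.25 on the log2 scale (adjusted p = 0.0448). This call sat at the threshold: it was lost in 12 of 18 fits that left out 1 library, with adjusted p up to 0.186, and in the 12 libraries with fewer reads off annotated features (log2 difference 1.04, adjusted p = 0.443). It was firmer without DMSO bulk replicate 1 (adjusted p = 0.000868). EPZ5676 low replicates 2 and 3, whose share was low like that of the DMSO low libraries, stood at 4.06 and 4.00 CPM.

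VEGFC and KDR also stood higher in EPZ5676 low cells with no overlap, a pattern that 11.6% of genes showed. VEGFC stood at 1.96 to 2.83 CPM against 0.835 to 1.56 CPM, a ratio of 2.04, and KDR at 1.05 to 2.19 CPM against 0.452 to 0.933 CPM, a ratio of 2.31. Neither passed in the fit of 18 libraries: the log2 difference was 1.06 ± 0.78 for VEGFC (adjusted p = 0.66) and 1.22 ± 0.44 for KDR (adjusted p = 0.224). Both rose without DMSO bulk replicate 1 (adjusted p = 0.00475 for VEGFC and 0.0296 for KDR, against 5.15% of all genes called). Over 29 alternatives the adjusted p ran from 0.00475 to 0.926 for VEGFC and from 0.00949 to 0.651 for KDR. VEGFA, VEGFB, FLT1 and EGFL7 had log2 differences between -0.10 and 0.07 here.

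In bulk cells no member passed in the edgeR fit of 18 libraries or in DESeq2, against 0.728% of all genes in edgeR. Before adjustment 3 members, VEGFA, KDR and VWF, were under 0.05 in edgeR, and the share of all genes at that threshold is not given. DMSO bulk replicate 1 governs this comparison. VEGFA was 273 CPM in that library and 71.6 and 75.3 CPM in the other 2, against 74.4, 61.8 and 62.8 CPM under EPZ5676. VEGFC was 15.3 CPM there and 2.53 and 2.20 CPM in the other 2, against 5.89, 4.06 and 3.44 CPM under EPZ5676. The log2 difference of VEGFC was -0.54 ± 0.58 with the library (adjusted p = 0.779) and 0.91 ± 0.21 without it (adjusted p = 0.0113), so its direction turned.

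Without that library, KDR and VWF also rose in EPZ5676 bulk cells, so that 3 of 7 members passed against 2.93% of all genes. KDR stood at 1.55, 2.42 and 1.5 CPM under EPZ5676 and 0.263 and 0.798 CPM in the remaining DMSO bulk libraries (log2 difference 1.78 ± 0.41, adjusted p = 0.00926). VWF stood at 4.72, 5.55 and 3.44 CPM and 2.11 and 2.67 CPM (0.96 ± 0.21, adjusted p = 0.00737). With the library, the differences were 1.00 ± 0.42 for KDR (adjusted p = 0.341) and 0.55 ± 0.24 for VWF (adjusted p = 0.349). VEGFC, KDR and VWF were the members that passed in both bulk and low cells once DMSO bulk replicate 1 was left out. The bulk and low comparisons share no libraries but share an estimate of the spread. For NGFR, the remaining bulk libraries lay at 1.44% to 4.4% of the way from low to high cells. The share of all genes that passed in both is not given.

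**Figure D2:**
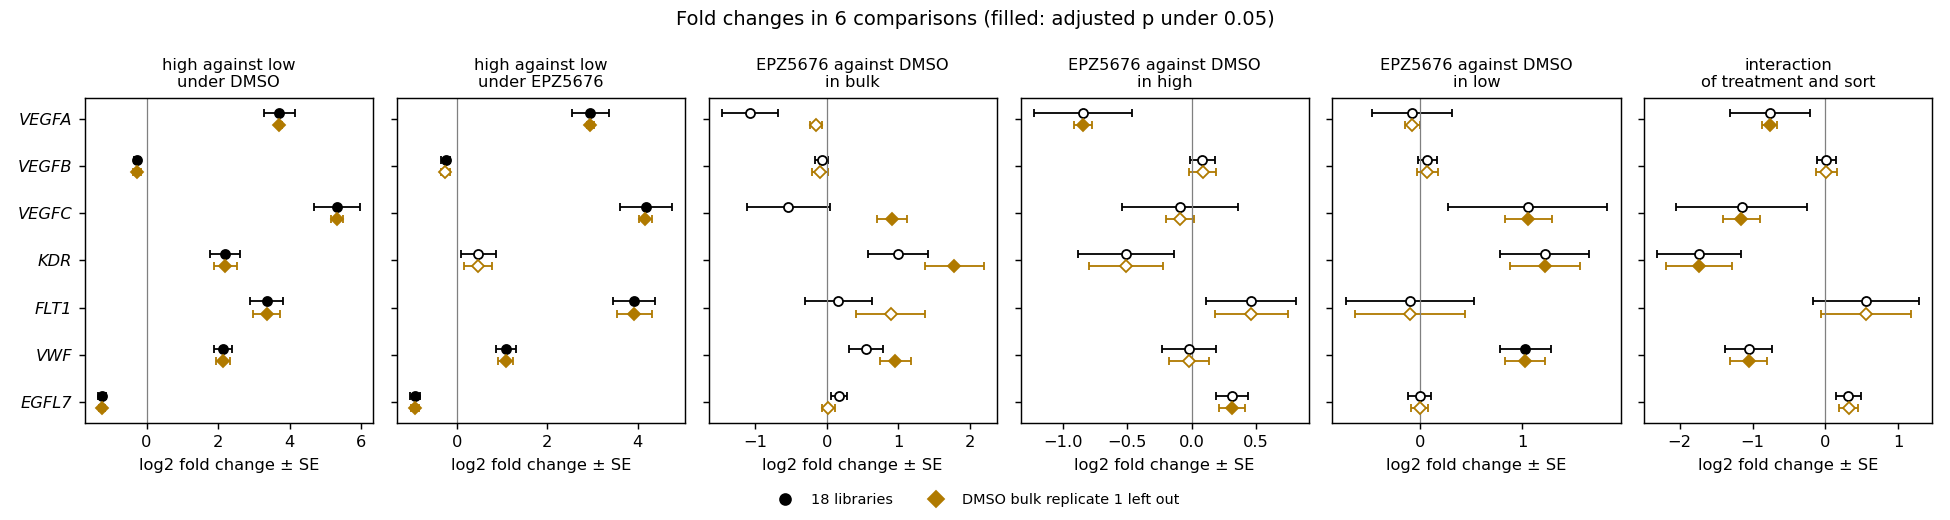
Log2 fold changes ± SE (x axes) of the 7 tested members (y axis) in the 6 comparisons, fitted to 18 libraries (black circles) and without DMSO bulk replicate 1 (brown diamonds), filled where the adjusted p is under 0.05. The sort differences keep their size in both fits, while error bars of the treatment comparisons shrink without that library, as for VEGFA in high cells (0.38 to 0.07).

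Whether the sort difference depended on treatment was tested as an interaction, the sort difference under EPZ5676 minus that under DMSO. No member passed over 18 libraries in edgeR or DESeq2, against 0.320% of all genes in edgeR. Before adjustment 2 members, KDR and VWF, were under 0.05 in edgeR, and the share of all genes at that threshold is not given. The estimates were -1.73 ± 0.57 for KDR (adjusted p = 0.232), -1.15 ± 0.90 for VEGFC (0.693), -1.05 ± 0.33 for VWF (0.201) and -0.76 ± 0.55 for VEGFA (0.664), each a smaller sort difference under EPZ5676. These 4 members passed without DMSO bulk replicate 1, against 5.71% of all genes: adjusted p = 0.0152 for KDR, 0.00529 for VEGFC, 0.00866 for VWF and 7.09e-05 for VEGFA. In that fit VEGFA differed between treatments in high cells, whereas KDR, VEGFC and VWF differed in low cells. FLT1 (0.56, adjusted p = 0.823), EGFL7 (0.32 ± 0.17, adjusted p = 0.504) and VEGFB (0.02, adjusted p = 0.981) did not pass in either fit.

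Ordered by mean, VEGFA fell from DMSO high (757 ± 3.47 CPM, SD, n = 3) to EPZ5676 high (422 ± 30.0), DMSO bulk (140 ± 115), EPZ5676 bulk (66.4 ± 7.0), DMSO low (57.6 ± 0.612) and EPZ5676 low (54.5 ± 6.42). DMSO and EPZ5676 bulk overlapped, and so did DMSO and EPZ5676 low, while the other neighbours were separate. For VEGFC the order was DMSO high, EPZ5676 high, DMSO bulk, EPZ5676 bulk, EPZ5676 low and DMSO low, with overlap between the 2 high groups and between the 2 bulk groups. VWF shared the top of that order, but EPZ5676 bulk (4.57 ± 1.06 CPM) and EPZ5676 low (4.02 ± 0.0383 CPM) came before DMSO bulk (3.22 ± 1.46 CPM) and DMSO low (1.96 ± 0.487 CPM), and only the step below the high groups was free of overlap.

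KDR ran from DMSO high (3.17 ± 0.555 CPM) to DMSO low (0.687 ± 0.241 CPM), and only DMSO high was separate from its neighbour, EPZ5676 high (2.23 ± 0.349 CPM). FLT1 was the 1 member highest in EPZ5676 high cells (4.14 ± 0.524 CPM), followed by DMSO high (3.01 ± 0.449 CPM), with both separate from the next group and the 4 others overlapping in turn. EGFL7 had 4 overlapping groups at the top, from EPZ5676 bulk (30.0 ± 2.67 CPM) to DMSO bulk (26.5 ± 5.03 CPM), then EPZ5676 high (15.7 ± 0.616 CPM) and DMSO high (12.6 ± 1.28 CPM), each separate. VEGFB had no step without overlap, from 98.3 ± 2.79 CPM in DMSO bulk to 76.9 ± 7.01 CPM in DMSO high cells.

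The position of bulk cells between low and high cells differed by member. On a scale from the low mean (0%) to the high mean (100%) of the same treatment, VEGFA lay at 2.01% and 2.54% in DMSO bulk replicates 2 and 3 and at 1.99% to 5.41% under EPZ5676. VEGFC lay at 3.02% and 2.31% and at 2.62% to 8.52%. In the same 2 DMSO libraries NGFR lay at 2.03% and 1.44% and EGFR at 9.15% and 9.33%. Under EPZ5676 the spread was wider for FLT1 (2.97% to 23.3%), VWF (-12.7% to 33.9%) and EGFL7 (-22.6% to 12%). In DMSO bulk replicate 1 the positions were 30.8% for VEGFA, 31.2% for VEGFC, 38.8% for FLT1, 43.6% for VWF, 46% for KDR and 53.3% for EGFL7, beside 38.4% for NGFR and 35.7% for EGFR. These 6 members sat between low and high cells in that library, as NGFR and EGFR did, and VEGFB did not, at -17.8%. For KDR under EPZ5676, with high and low means close together, the scale is unstable and ran from -14% to 130%.

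**Figure D3:**
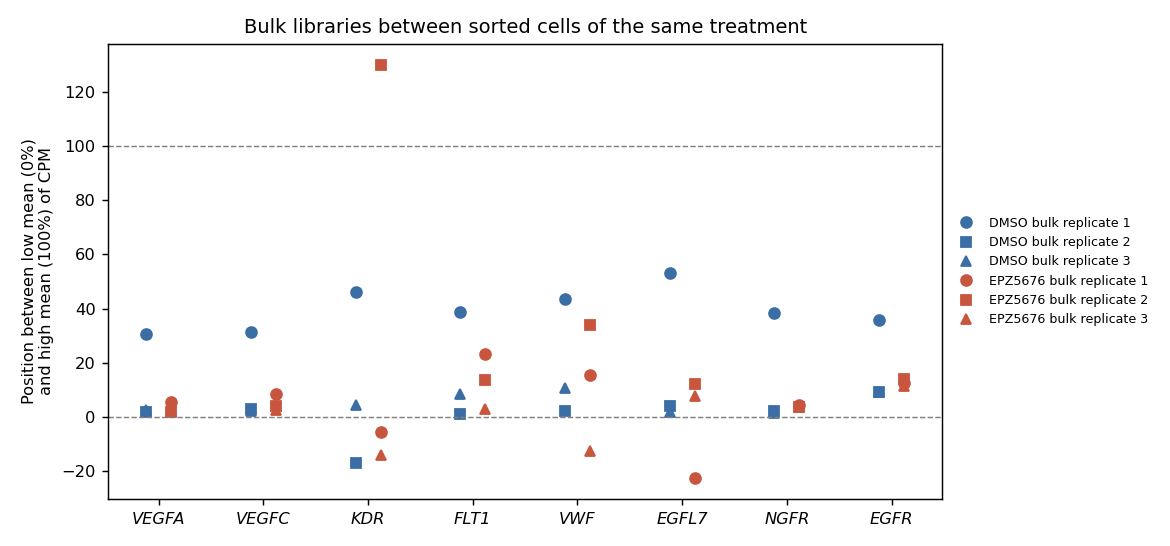
Position of each bulk library (y axis, percent of the way from the low to the high mean CPM of its treatment; dashed lines at 0% and 100%) for 6 members (VEGFB, whose sort difference was small, is not plotted) and the sorted receptors NGFR and EGFR (x axis). DMSO bulk replicate 1 lies at 30.8% to 53.3% for the members shown, above the other DMSO bulk libraries.

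Across the 18 libraries the members fell into patterns that are given as descriptions, since libraries share groups. On log2 CPM, VEGFA and VEGFC had a Pearson r of 0.956, VEGFA and FLT1 0.902, VEGFC and FLT1 0.935, VEGFC and VWF 0.922, and KDR and VWF 0.859. EGFL7 ran against them, with r of -0.975 to VEGFA and -0.928 to VEGFC. VEGFB was closest to EGFL7 (0.72). Other genes had such patterns as well, to different degrees: 975 of 11133 other genes had r of at least 0.95 with VEGFA, 731 with VEGFC and 715 with EGFL7, but 31 with FLT1, 11 with VWF and 0 with KDR or VEGFB.

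The genes most like each member, by the highest r, were RASSF8 (0.998), LRP1 (0.998) and ITGB1 (0.997) for VEGFA and MMP9 (0.994) and CCN3 (0.993) for VEGFC. For FLT1 they were CTSO (0.969), VAV2 (0.966) and BRIP1 (0.963), and for VWF they were TNFRSF21 (0.974), MGP (0.961) and HTRA1 (0.961). EGFL7 was most like HRK (0.991), FAAP100 (0.991) and SLC3A2 (0.989). KDR was most like LINC00649 (0.898), CHD2 (0.895) and TNFRSF21 (0.884), and VEGFB most like KLF16 (0.874), MAZ (0.859) and the pseudogene NDUFV2P1 (0.858). TNFRSF21 stands in the lists of both KDR and VWF.

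Other ligands and receptors of the system split by sort. Of 9, 6 could be tested; 3 rose and 1 fell in high cells under each treatment, against 29.6% of all genes higher under DMSO and 25.8% under EPZ5676. NRP1, a co-receptor for VEGFA, stood at 72.9, 65.4 and 58.5 CPM in DMSO high and 0.246, 0.201 and 0.180 CPM in DMSO low cells, with no overlap (log2 fold change 8.26 ± 1.16, adjusted p = 4.82e-05). ANGPT1, the ligand of TEK, stood at 14.5, 13 and 13 CPM against 0.0491, 0.151 and 0.360 CPM (6.09 ± 0.81, adjusted p = 2.51e-05). NRP2, a co-receptor for VEGFC, rose by 0.27 ± 0.06 (adjusted p = 0.000974), and PGF, a further ligand of FLT1, fell by 0.56 ± 0.21 on the log2 scale (adjusted p = 0.025). In low cells NRP2 fell under EPZ5676 by 0.29 ± 0.06 on the log2 scale (adjusted p = 0.0252). In high cells NRP1 stood at 38.6, 34.5 and 42.1 CPM under EPZ5676, below its DMSO libraries, and its log2 difference of -0.77 passed without DMSO bulk replicate 1 (adjusted p = 0.000199). ANGPT1 rose under EPZ5676 in that fit in bulk (adjusted p = 0.00637) and low cells (adjusted p = 0.0363). It passed in neither over 18 libraries, and DMSO bulk replicate 1 held 5.73 CPM against 1.34 to 1.72 CPM in EPZ5676 bulk.

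Of 6 genes that process VEGFC, 4 could be tested; 4 rose in high cells under DMSO, against 29.6% of all genes higher, and 3 under EPZ5676, against 25.8%. CCBE1, the cofactor that brings VEGFC to its protease, rose by 3.53 ± 0.48 on the log2 scale under DMSO (adjusted p = 1.04e-05), and ADAMTS3, that protease, by 2.19 ± 0.18 (adjusted p = 2.76e-09). The proprotein convertases PCSK7 (0.45 ± 0.08, adjusted p = 2.52e-05) and FURIN (0.34 ± 0.07, adjusted p = 0.000161) rose less. In low cells CCBE1 averaged 1.60 CPM under EPZ5676 and 0.654 CPM under DMSO, a difference that passed without DMSO bulk replicate 1 (adjusted p = 0.00685).

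VEGFA is a target of the oxygen-sensing pathway, and most regulators of that pathway did not pass between high and low cells. Over all tested genes, 29.6% were higher and 26.7% lower in high cells under DMSO, and 25.8% and 23.1% under EPZ5676. Of 8 regulators, 1 rose and 1 fell in high cells under each treatment: EPAS1, a hypoxia-inducible factor, rose by 0.93 ± 0.10 under DMSO (adjusted p = 3.12e-07) and EGLN1, a hydroxylase that marks such factors for breakdown, fell by 0.58 ± 0.09 on the log2 scale (adjusted p = 2.96e-05). Of 12 hypoxia targets, 9 rose and 2 fell under DMSO and 8 rose and 1 fell under EPZ5676, with a median log2 fold change of 0.45 under DMSO. Among the 12, CA9 stood at 0.547 to 1.25 CPM in DMSO high and at most 0.183 CPM in bulk and low libraries. It passed the count filter only through high cells, so a rise of CA9 there is no support. NDRG1 (4.83 ± 0.70, adjusted p = 5.83e-05) and ADM, the peptide adrenomedullin (1.07 ± 0.10, adjusted p = 1.44e-07), rose, while the glycolytic enzyme PGK1 fell by 0.38 ± 0.05 on the log2 scale (adjusted p = 3.18e-06).

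The hypoxia targets that passed between treatments in high cells were lower under EPZ5676, as the VEGFA libraries were. PDK1, a kinase that restrains pyruvate entry into mitochondria, fell by 0.36 ± 0.07 on the log2 scale (adjusted p = 0.00368), and P4HA1, a collagen prolyl hydroxylase, fell by 0.27 ± 0.05 (adjusted p = 0.00616), so 2 of 12 fell and 0 rose, against 1.04% of all genes lower. Without DMSO bulk replicate 1, ADM (log2 difference -0.18, adjusted p = 0.0323) and NDRG1 (-0.56, adjusted p = 0.0233) fell too, making 4 of 12, against 4.89% of all genes. In low cells, where the VEGFA difference was -0.08, 0 of 12 passed in edgeR over 18 libraries. Before adjustment 5 were under 0.05, and the share of all genes at that threshold is not given. Those 5 (ADM, SLC2A1, BNIP3, PDK1 and P4HA1) fell without that library, against 2.14% of all genes.

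Of 8 genes listed here as inhibitors of angiogenesis, 7 rose in high cells under DMSO (29.6% of all genes were higher) and 6 under EPZ5676 (25.8%). The list includes VASH2, a relative of VASH1 whose role as an inhibitor is not shown here. None of the 8 was lower, and the median log2 fold change was 1.77 under DMSO. THBS1, thrombospondin 1, rose by 5.73 ± 0.82 (adjusted p = 5.59e-05), COL18A1, whose cleavage yields endostatin, by 4.19 ± 0.56 (adjusted p = 3.11e-05), TIMP3, which blocks VEGFA from KDR, by 2.21 ± 0.27 (adjusted p = 1.32e-05), and THBS2 by 2.16 ± 0.23 (adjusted p = 9.22e-08). ADAMTS1 rose by 1.06 ± 0.09 (adjusted p = 9.82e-09), and was also higher under EPZ5676 than DMSO in high cells (0.39 ± 0.09, adjusted p = 0.021).

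In low cells, 2 of these 8 listed genes rose under EPZ5676, against 0.712% of all genes higher. THBS2 stood at 2.52, 3.08 and 3.38 CPM against 1.52, 1.66 and 1.26 CPM under DMSO (1.03 ± 0.24, adjusted p = 0.0371). VASH1, vasohibin, stood at 18.4, 19.6 and 19.4 CPM against 11.2, 10.9 and 13.3 CPM (0.70 ± 0.13, adjusted p = 0.00628). Both sets of libraries were separate, as for VWF in the same cells. Without DMSO bulk replicate 1, THBS1, COL18A1 and TIMP3 rose too, making 5 of 8 against 3.01% of all genes. In the same fit THBS1 rose in EPZ5676 high cells (log2 difference 0.82, adjusted p = 0.00261) and COL18A1 fell there (-0.43, adjusted p = 0.000428). In bulk cells THBS1, VASH1, COL18A1 and TIMP3 rose in that fit, 4 of 8 against 2.93% of all genes called. Over all 18 libraries 0 of the 8 passed in bulk cells, with a median log2 difference of -0.15. DMSO bulk replicate 1 stood at 306 CPM for THBS1, 37.7 CPM for COL18A1 and 1690 CPM for TIMP3, above all EPZ5676 bulk libraries. Its VASH1 level, 19.0 CPM, lay within the EPZ5676 bulk range of 18.4 to 22.4 CPM. These lists, like the members, are described by their counts and not by a test of the list.

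**Figure D4:**
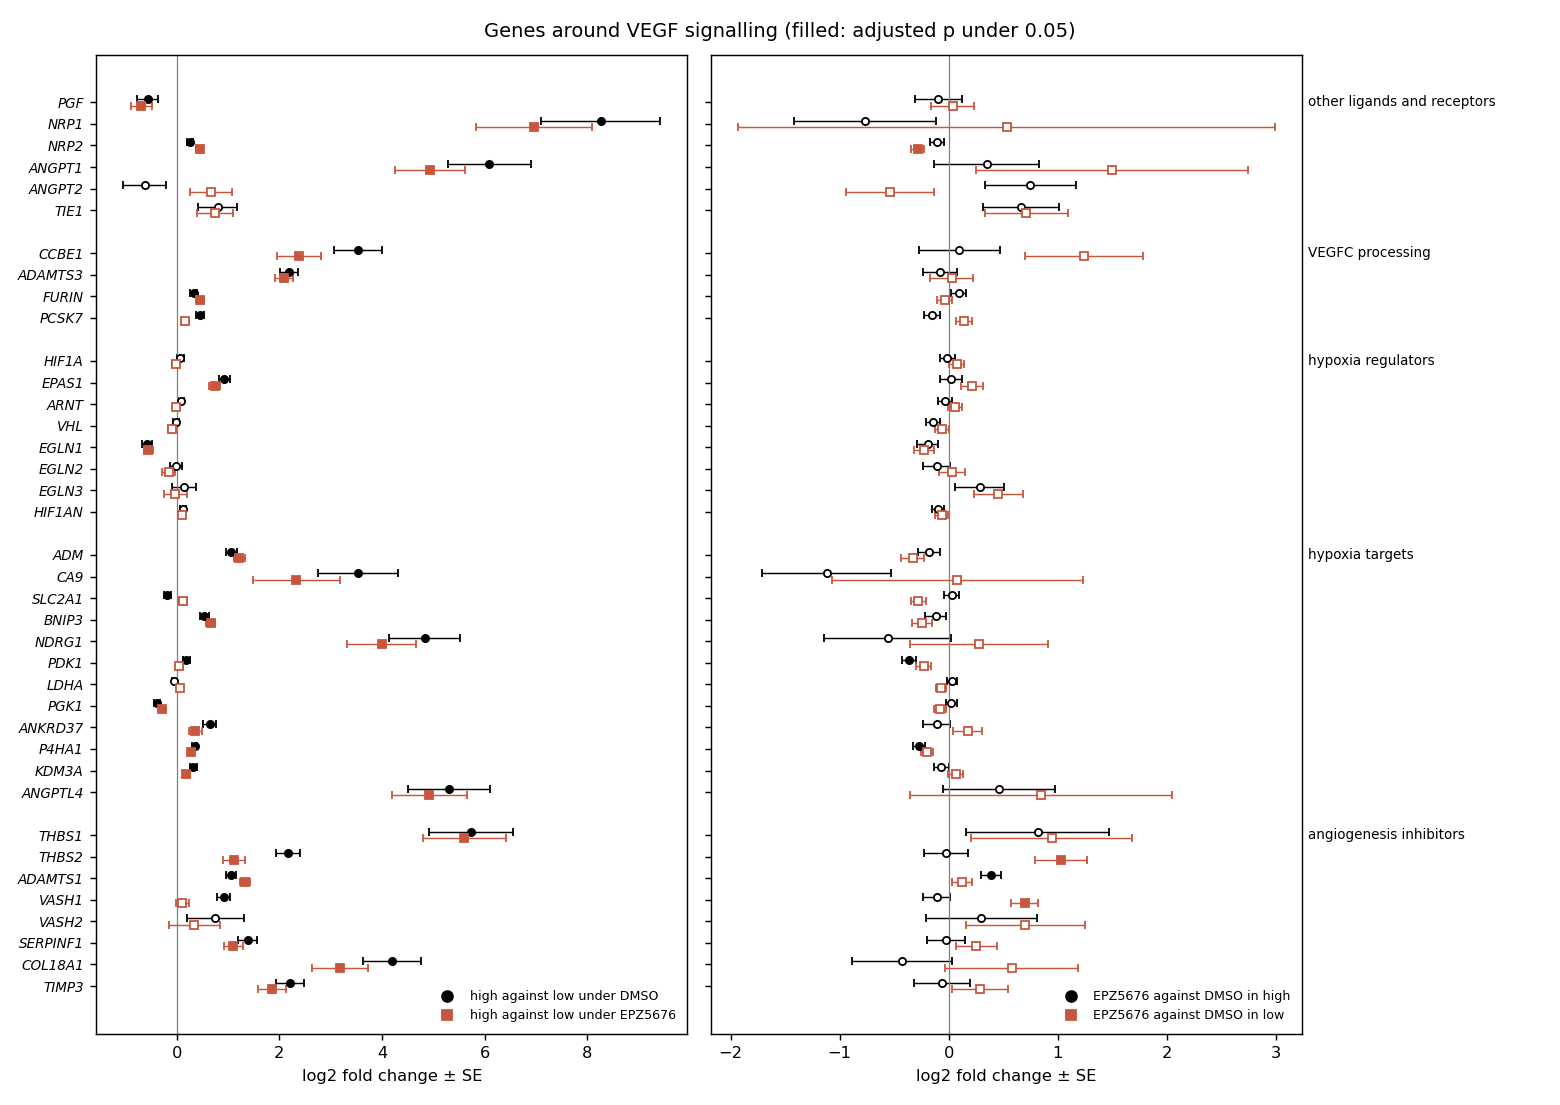
Log2 fold changes ± SE (x axes) of the tested genes of 5 further lists (y axis), with the sort differences under DMSO and EPZ5676 on the left and the treatment differences in high and low cells on the right, filled where the adjusted p is under 0.05. NRP1 (8.26) and ANGPT1 (6.09) show the widest sort differences under DMSO among the genes plotted, and few treatment differences are filled.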

How the data were processed

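Poly(A) RNA from 18 WM989 libraries was sequenced as paired ends, per the labels' protocols. The authors deposited 1 table of raw counts per Ensembl gene and library; the submitters' processing notes name STAR, HTSeq and hg19. Versions, annotation release and strand setting are not given in the sources used here. The table held 63677 genes and 5 summary lines per library, which were left out of library sizes and tests. Of each library's reads, 12.80% to 28.65% were on no feature and 6.07% to 7.71% ambiguous. Libraries held 13383741 to 26311674 gene counts, and 0 pairs were identical. Coordinates are those of the RefSeq promoter table (GRCh38.p14) and not of the counts.

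The tests used edgeR 4.0.16 under R 4.3.3: filterByExpr (18121 genes kept), TMM factors, and a robust quasi-likelihood fit of 6 group means over 18 libraries. P-values were adjusted by Benjamini-Hochberg over all tested genes within each of 6 comparisons, with a threshold of 0.05. The F statistic gave each log2 fold change its standard error. Levels are TMM-scaled CPM, and correlations used log2 CPM with a prior count of 2. The script was tested on simulated counts. Alternatives were RLE or library size scaling, dropping the filter or keeping genes that average 1 CPM or more, a replicate block, a covariate for reads on no feature, omitting the 6 libraries above 16% of such reads, omitting each library, fitting the groups compared alone, and DESeq2 1.42.0; 2 combinations with DMSO bulk replicate 1 left out were chosen after seeing the data.

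The members and gene lists were chosen with earlier results of these data known. All 10 members are named. From each further list other than the cell type markers, up to 4 tested genes with the smallest p between DMSO high and low cells were named. Genes called between treatments were added. Some cell type markers, some genes that passed without DMSO bulk replicate 1, and VWFP1, were named after their values were seen. The lists were other VEGF and angiopoietin ligands and receptors, VEGFC processing, hypoxia regulators, hypoxia targets, angiogenesis inhibitors, and markers of endothelium, fibroblasts and pericytes, and melanocytes. For likeness, the 3 genes with the highest r and a mean of at least 5 CPM were named, except 1 that is not reported here.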

Additional observations from a re-analysis of the deposited data

Results flagged for a closer look

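KDR libraries lay on opposite sides of DMSO in the 2 sorted populations, although neither difference passed over 18 libraries. In high cells the 3 EPZ5676 libraries were all below the DMSO libraries, and in low cells they were all above. The difference of the 2 changes was a log2 value of -1.73 ± 0.57 and did not pass the test (adjusted p = 0.232).

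COL18A1, the precursor of endostatin, showed the same crossing. It stood at 56.7, 53.5 and 59.2 CPM under EPZ5676 and 68.5, 78.0 and 82.0 CPM under DMSO in high cells, and at 7.5, 5.71 and 5.67 CPM and 3.93, 3.67 and 4.85 CPM in low cells. The difference of the changes was -1.01 on the log2 scale (adjusted p = 0.684). It passed without DMSO bulk replicate 1, as KDR did (adjusted p = 4.55e-05 for COL18A1 and 0.0152 for KDR).

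VASH1 was the 1 gene of the lists around VEGF signalling that passed for the interaction over 18 libraries, against 0.320% of all genes. Its log2 interaction was -0.81 ± 0.18 (adjusted p = 0.0487). This call sat at the threshold, and its result with single libraries left out is not given. VASH1 stood at 19.9, 25.1 and 21.8 CPM in DMSO high and 11.2, 10.9 and 13.3 CPM in DMSO low cells, but at 20.8, 19.3 and 21.9 CPM in EPZ5676 high and 18.4, 19.6 and 19.4 CPM in EPZ5676 low cells.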

How the results depend on the processing

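The sort differences of VEGFA, VEGFC, FLT1, VWF and EGFL7 kept their direction and passed in all 29 alternatives under both treatments. Counts of members called under leave-one-out ran from 6 to 7 (DMSO sort) and 5 to 6 (EPZ5676 sort). Treatment results moved most with DMSO bulk replicate 1. Leaving out 1 library gave 39 to 550 genes and 0 to 3 members called in bulk, 200 to 2018 genes and 0 to 2 members in high, 60 to 968 genes and 0 to 3 members in low cells, and 14 to 1072 genes and 0 to 4 members for the interaction. It gave 9474 to 10798 genes in the DMSO sort and 8033 to 9496 in the EPZ5676 sort. In the fit of 18 libraries the genes called were 132 (bulk), 543 (high), 188 (low), 58 (interaction), 10199 and 8858 (sorts).

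With no filter, genes called were 440 in bulk, 948 in high, 373 in low cells and 304 for the interaction, with 1 member called in high, 2 in low cells and 2 for the interaction. Fitting only the groups compared gave 2, 1413, 1028 and 863 genes, with 1, 3 and 4 members called in high, low and the interaction. DESeq2 gave 290 genes in bulk, 311 in low and 182 for the interaction. The no-feature share as a covariate gave 50 genes in bulk. Without the libraries over 16% no feature, genes called fell to 0 in bulk, 5 in high, 7 in low, 0 for the interaction and 4176 in the EPZ5676 sort, and members called in low cells to 0; fewer libraries were fitted. With the covariate and DMSO bulk replicate 1 left out, they were 418, 2009, 903 and 1024, with 3, 2, 3 and 4 members. With both sets of libraries left out, 452 genes were called in low cells and 284 for the interaction, with 2, 1, 3 and 2 members.

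Of 1215 recomputed member results, 33 changed sign; 0 of these had passed over 18 libraries and 2 passed in the alternative, both VEGFC in bulk. Under leave-one-out, log2 values in bulk ran from -0.98 to 0.91 for VEGFC, -0.19 to 0.89 for FLT1 and -0.13 to 0.0237 for VEGFB; in high cells from -0.0859 to 0.0452 for VWF; in low cells from -0.0075 to 0.16 for VEGFB, -0.57 to 0.25 for FLT1 and -0.0659 to 0.0736 for EGFL7; and from -0.067 to 0.0921 for the interaction of VEGFB. VEGFC in bulk was 0.90 with the covariate and DMSO bulk replicate 1 left out and 0.78 with both sets of libraries left out, and EGFL7 in bulk -0.0116 and -0.0648. VWF in high cells was 0.0237 and 0.0145 there, 0.0030 with library size scaling, 0.0083 with no filter, 0.0233 with the covariate and 0.0191 without the libraries over 16%. VEGFB was 0.0289 in bulk and -0.0949 for the interaction without those libraries, and -0.10 for the interaction with both sets left out. EGFL7 in low cells was 0.0101 with library size scaling, 0.0019 with a mean of at least 1 CPM and 0.0016 in the groups compared. The cause of these changes was not tested.

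Same-numbered replicates did not deviate together (correlations from -0.34 to 0.296), so the numbers were not taken as pairs. With a replicate block, VWF in low cells lost its call (adjusted p = 0.062), leaving 0 members called there, and no other member changed its call. KDR, FLT1 and VWF rest on at most 191 counts per library, which limits the precision of their fold changes.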
